A study of Mus musculus with 4 samples.

Results

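Receptors and surface molecules that steer lymphocytes into, within and out of lymphoid organs were followed in mouse Treg cells, the regulatory subset of CD4 T cells that is defined by Foxp3 and keeps other immune cells in check. The 7 genes were Ccr7, S1pr1, S1pr4, Cd69, Selplg, Gpr183 and Cd44, and every probe set that the platform annotation gave to 1 of them was taken, 11 of the 45101 probe sets on the array. The cells were CD4+Foxp3+ Treg cells from the spleen of C57BL/6 mice, measured on 2 arrays labelled Foxo1/3-deficient and 2 arrays labelled wild-type, with 1 array of each genotype in each of 2 numbered pairs. For the deficient samples the genotype label gives Foxo1 alone and the titles give both genes, and the titles set the groups. The sources used here do not give the alleles, the promoter of any Cre, the age of the mice or whether animals were pooled, so p-values measure the spread between these arrays, which may be technical.

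Lymphocytes enter lymph nodes from the blood by rolling on the vessel wall, where the chemokine receptor CCR7 then answers the ligands CCL19 and CCL21. They leave by following sphingosine 1-phosphate, a lipid that is abundant in blood and lymph and is sensed by the receptor S1PR1, while CD69 binds S1PR1 and takes it off the cell surface. In mouse T cells Foxo1 is known to promote Ccr7 and the transcription factor gene Klf2, and KLF2 in turn promotes S1pr1.

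Before the receptors, the labels and the arrays were checked. Foxo1 was brighter, not dimmer, on the arrays labelled deficient, at 6949 and 6697 against 2383 and 1254 on the wild-type arrays (probe set 1416983_s_at), so each direction below is that of the arrays as labelled. The sources used here do not place this probe set relative to any deleted part, and whether the labels match the cells was not tested. Foxo3 went the other way without overlap, at 1425 and 1308 on the labelled-deficient arrays against 1876 and 2635 on the wild-type arrays. It missed the threshold of the fit described below (limma adjusted p = 0.241) and passed with the pair as a block term (limma adjusted p = 0.0127). Of 9 Treg and T cell markers tested 0 were called (limma, described below), and Foxp3 read 6504 and 6056 on the labelled-deficient arrays and 6540 and 6285 on the wild-type arrays. The pairs differed in sex-linked signals: Kdm5d, a Y-linked gene, read 0.758 in pair 1 and 904 in pair 2 on the labelled-deficient arrays, and 5.07 and 653 on the wild-type arrays. Xist, the RNA of the inactive X chromosome, read 11497 and 83.0 on the labelled-deficient and 11569 and 4589 on the wild-type arrays, so the wild-type array of pair 2 carried both kinds of signal. Results are therefore given within each pair, and without that array where it matters.

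Ccr7 was the member that differed most. Its probe set read 5797 and 3535 on the labelled-deficient arrays of pairs 1 and 2, against 846 and 324 on the wild-type arrays. Both labelled-deficient arrays lay above both wild-type arrays, and in each genotype the array of pair 1 was the brighter one. Within the pairs the labelled-deficient signal was 6.85 times and 10.9 times the wild-type signal. Signals were compared as log2(signal + 17), a scale that understates the change of dim genes. The values are MAS5 intensities of bulk RNA, so fewer or more cells of a type cannot be told apart from less or more RNA per cell. On that scale Ccr7 rose by 3.07 ± 0.44 (SE), and it passed the threshold of 0.05 (limma adjusted p = 0.0170, n = 2 arrays a group). It ranked as the 12th highest rise among 12115 genes. Without the wild-type array of pair 2 the difference was 2.40, and without the wild-type array of pair 1 it was 3.74. Without the labelled-deficient array of pair 1 it was 2.71, and without that of pair 2 it was 3.42. Such a fit takes the spread of the lone array from the other group, so only sizes are given here.

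CCR7 is also made by B cells and mature dendritic cells, so markers of both were measured beside it. Of 10 B cell markers tested 0 were called, and all 10 had a log2 difference above 0; Ms4a1 and Ly86 passed without the wild-type array of pair 1 (limma adjusted p = 0.0192 and 0.0275). Of all genes 49.67% had a log2 difference above 0. A fit that also held the pair as a block term called 1 of the 10 higher, Ms4a1 (log2 0.89, limma adjusted p = 0.00494). Over the 11 B cell markers on the array the summed signal was 5011 and 3882 on the labelled-deficient arrays, against 4645 and 1872 on the wild-type arrays. That sum was 1.08 times the wild-type value in pair 1 and 2.07 times in pair 2, where Ccr7 stood at 6.85 and 10.9 times. The B cell transcription factor gene Pax5 was dim throughout, at 44.7 and 40.2 against 17.7 and 7.41. Of 11 dendritic cell markers 0 were called, and their summed signal, over 14 on the array, was 11773 and 8966 against 15278 and 6210. Of that sum H2-Aa alone made up 5155 and 3562 against 8389 and 2068. The block called 2 of the dendritic cell markers higher, Cd209a (log2 1.33, limma adjusted p = 0.0192) and Cd83 (0.71, 0.0328), and 0 lower. Of the 11 tested 7 lay above 0, and their median log2 difference was 0.04. Without overlap 3 of the 11 were higher and 1 lower, against 20.0% and 21.1% of all genes. Higher was Cd209a, at 186 and 188 on the labelled-deficient arrays against 62.0 and 66.6 on the wild-type arrays. So were Cd83, at 2982 and 2089 against 1211 and 1894, and Flt3, at 154 and 137 against 94.9 and 87.1. Fscn1 was lower, at 160 and 184 on the labelled-deficient arrays against 321 and 205 on the wild-type arrays (log2 -0.54, limma adjusted p = 0.611). The part of such cells in the Ccr7 signal was not tested.

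The sphingosine 1-phosphate receptor S1pr1 rose as well. It read 3304 and 2320 on the labelled-deficient arrays, against 1046 and 1061 on the wild-type arrays, which differed from each other by little. The groups did not overlap, and the labelled-deficient signal was 3.16 times the wild-type signal in pair 1 and 2.19 times in pair 2. The log2 difference was 1.38 ± 0.24 (SE; limma adjusted p = 0.0329), and it missed the threshold without the labelled-deficient array of pair 1 (1.13, limma adjusted p = 0.195). When every probe set on the array was tested instead of 1 a gene, S1pr1 just missed it (limma adjusted p = 0.0513), whereas Ccr7 passed (0.0202). Both missed it in the fit over genes without the filter on dim probe sets (limma adjusted p = 0.0608 for Ccr7 and 0.0779 for S1pr1) and without the intensity trend in the variance (0.0624 and 0.0928). Klf2, the transcription factor gene upstream of S1pr1, read 7519 and 6738 on the labelled-deficient arrays and 3175 and 2666 on the wild-type arrays. The labelled-deficient Klf2 signal was 2.37 and 2.53 times the wild-type signal in the pairs. Foxo1, Klf2, Ccr7 and S1pr1 were thus all higher on the arrays labelled deficient. That direction is opposite to the one that the known regulation given above predicts for a loss of Foxo1, and why was not tested.

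S1pr4, a second receptor for the same lipid that is found mainly on cells of the blood and lymphoid organs, was higher by less. Its signals were 4729 and 3953 on the labelled-deficient arrays and 2736 and 2771 on the wild-type arrays, without overlap. The signal was 1.73 times the wild-type value in pair 1 and 1.43 times in pair 2. The log2 difference of 0.65 ± 0.20 (SE) missed the threshold (limma adjusted p = 0.172, 95% interval 0.19 to 1.11). It passed with the pair as a block in the fit over genes (limma adjusted p = 0.00888) but not over every probe set (0.0561).

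Cd69, whose protein holds S1PR1 inside the cell and which rises early upon T cell activation, read 5483 and 4447 on the labelled-deficient arrays and 4185 and 3793 on the wild-type arrays. The groups did not overlap, but the lower labelled-deficient signal lay close to the higher wild-type signal. The log2 difference was 0.31 ± 0.20 (SE), with a 95% interval of -0.15 to 0.77 (limma adjusted p = 0.640). In both pairs the labelled-deficient array was the brighter, by 1.31 times and 1.17 times.

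**Figure D1:**
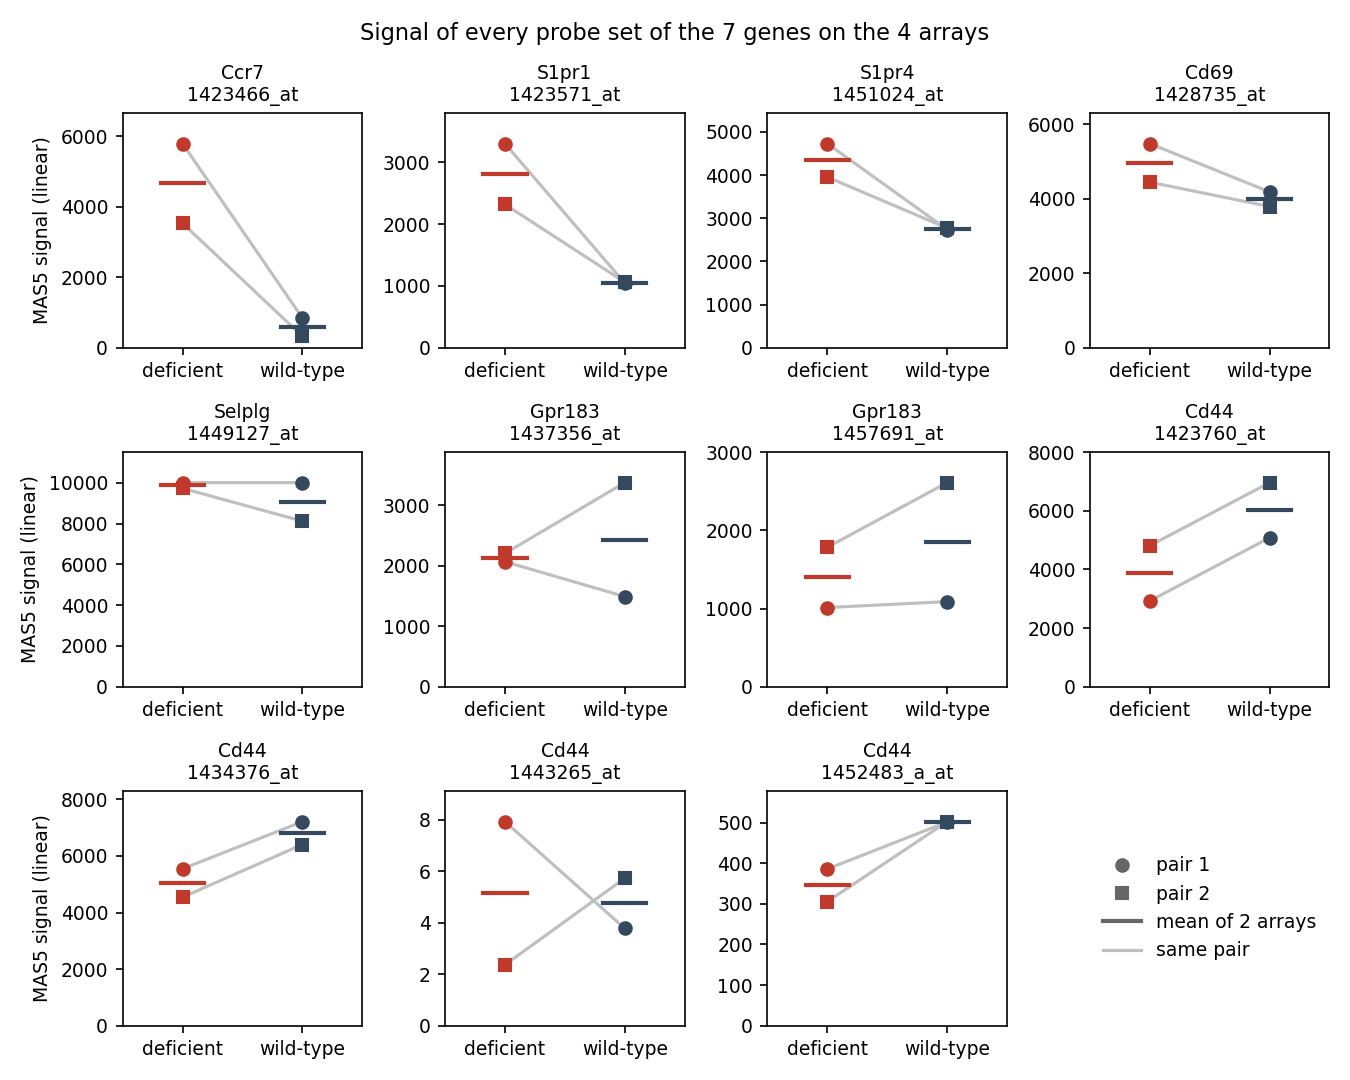
MAS5 signal (linear, from 0) of all 11 probe sets on the labelled Foxo1/3-deficient arrays (red, left) and the wild-type arrays (blue, right); circles are pair 1, squares pair 2, grey lines join a pair and bars are means of 2 arrays. Ccr7, S1pr1, S1pr4 and Cd69 do not overlap and are higher on the labelled-deficient arrays, the 3 brighter Cd44 probe sets do not overlap and are lower, and Selplg and Gpr183 overlap.

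Selplg encodes PSGL-1, the selectin ligand on which lymphocytes roll and which also aids the response to CCR7 ligands. It gave 10012 and 9734 on the labelled-deficient arrays and 10013 and 8122 on the wild-type arrays. The 2 arrays of pair 1 were almost equal, and in pair 2 the labelled-deficient signal was 1.20 times the wild-type signal. The log2 difference was 0.13 ± 0.18 (SE; limma adjusted p = 0.885), and its 95% interval, -0.29 to 0.55, leaves room for a change in either direction. Without the wild-type array of pair 2 it was -0.02.

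Gpr183 (EBI2), which guides lymphocytes along oxysterols to the edges of the B and T cell zones, had 2 probe sets. The brighter of them, 1437356_at, read 2068 and 2206 on the labelled-deficient arrays and 1491 and 3377 on the wild-type arrays. Here the wild-type arrays bracketed the labelled-deficient ones, so the ratio was 1.39 in pair 1 and 0.653 in pair 2. The log2 difference of -0.07 ± 0.36 (SE; limma adjusted p = 0.985) became 0.51 without the wild-type array of pair 2 and -0.66 without that of pair 1, neither past the threshold (limma adjusted p = 0.550 and 0.300). The second probe set, 1457691_at, read 1013 and 1785 against 1089 and 2612, and its ratio lay below 1 in both pairs, at 0.931 and 0.683. On that probe set the array of pair 2 was the brighter in each genotype.

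Cd44, the hyaluronan receptor that is abundant on activated and memory T cells, was the member with lower signals, on 4 probe sets of which 3 passed the filter on dim signals. The brightest, 1434376_at, read 5547 and 4542 on the labelled-deficient arrays and 7215 and 6404 on the wild-type arrays. Probe set 1423760_at read 2923 and 4807 against 5080 and 6959, and 1452483_a_at read 386 and 306 against 502 and 503. On each of the 3 both labelled-deficient arrays lay below both wild-type arrays, with ratios between 0.575 and 0.770 within the pairs. Their log2 differences in the fit over every probe set were -0.44 ± 0.20, -0.66 ± 0.28 and -0.53 ± 0.29 (SE), and none passed (limma adjusted p = 0.526, 0.460 and 0.627). With the pair as a block 1423760_at passed narrowly (limma adjusted p = 0.0480), and the other 2 did not (0.189 and 0.332). The fourth probe set, 1443265_at, stayed between 2.37 and 7.93 on the 4 arrays, fell under the filter and was not tested.

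Natural killer and CD8 T cells also carry CD44 and CD69, and their tested markers lay on both sides of 0. The summed signal of 7 natural killer cell markers was 1709 and 1833 on the labelled-deficient arrays and 6893 and 7906 on the wild-type arrays, of which the granule protease gene Gzma made up 267 and 176 against 4957 and 7243. Of 4 natural killer cell markers tested 1 fell, Gzma, and of 4 CD8 T cell markers 2 fell, Klrc1 and Eomes (limma, adjusted p under 0.05). Of the same 4 natural killer cell markers 2 lay above 0, Tyrobp at log2 0.67 and Fcer1g at 0.24, and the CD8 T cell gene Cd8b1 stood at 0.44, none of them past the threshold. Tyrobp, Fcer1g and Cd8b1 all overlapped. Their ratios were below 1 in pair 1 (0.799, 0.644 and 0.958) and above 1 in pair 2 (3.27, 2.31 and 1.98). The natural killer cell marker Klrk1 was lower without overlap, at 78.6 and 64.8 against 133 and 95.5 (log2 -0.55, limma adjusted p = 0.633). The defining genes Ncr1 and Cd8a stayed at or under 37.2 and 232 on all 4 arrays. Their part in the Cd44 and Cd69 signals was not tested.

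**Figure D2:**
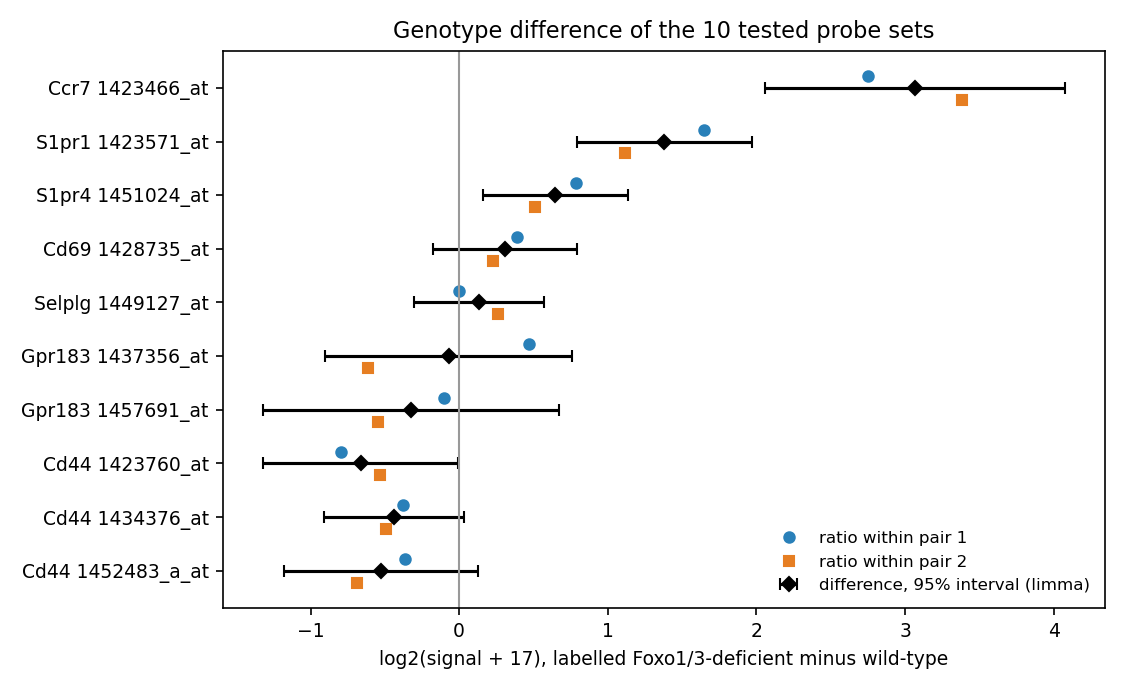
Difference in log2(signal + 17), labelled Foxo1/3-deficient minus wild-type, for the 10 probe sets that passed the filter, from the fit over every probe set; diamonds with bars are limma estimates with 95% intervals, and circles and squares are the ratios within pair 1 and pair 2. The estimates run from 3.07 for Ccr7 down to -0.66 for Cd44, and both pairs lie on the same side of 0 except for Gpr183 1437356_at and for Selplg, whose pair 1 ratio is at 0.

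Across the 7 genes, all of which were tested, 2 were called higher and 0 lower, where 1.21% of all 12115 genes were called higher and 1.35% lower (limma, adjusted p under 0.05). The 7 were chosen with earlier results of these data known, so that share describes them and tests nothing. When the pair was a block, 3 were called higher and 0 lower, against 5.23% and 6.36% of all genes. Over every probe set, 1 of the 10 tested was called higher (background 0.633%) and 0 lower (0.529%), and with the block 2 passed upward (2.52%) and 1 downward (2.61%). At least 2-fold in both pairs were Ccr7 and S1pr1, both upward, a size that 2.06% of all genes reached upward and 2.32% downward. On 4 of the 7 genes the labelled-deficient arrays lay wholly above the wild-type arrays, which was true of 20.0% of all genes, and on 1 wholly below (21.1%). The median log2 difference of the 7 was 0.31, and that of all genes was -0.0034.

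**Figure D3:**
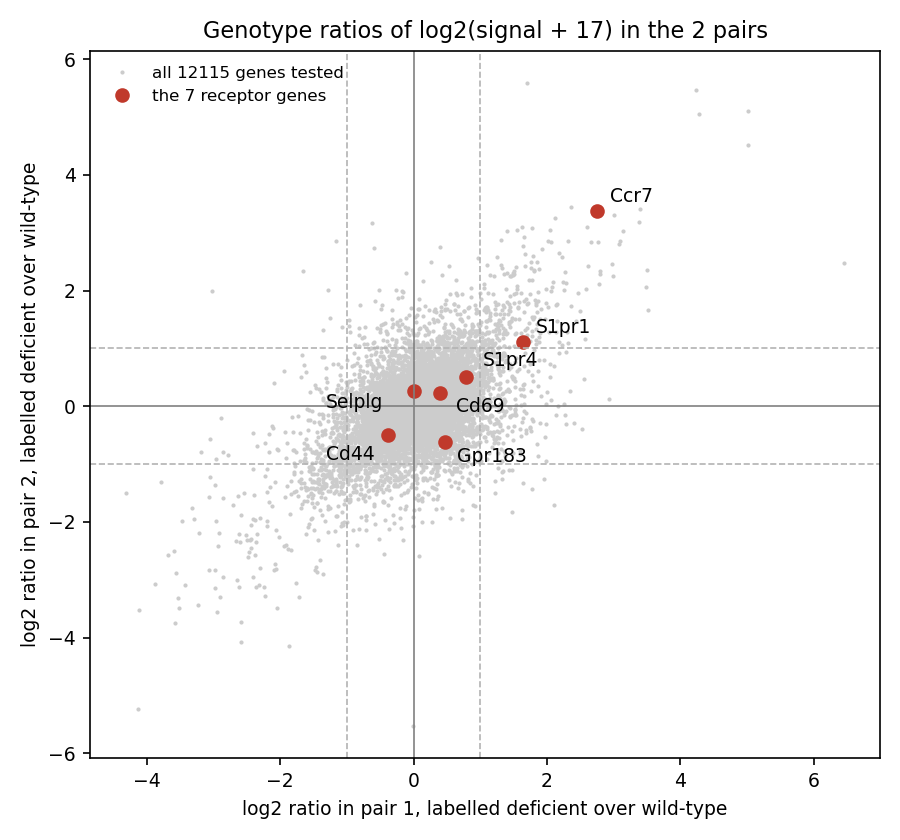
Log2 ratio of (signal + 17), labelled Foxo1/3-deficient over wild-type, in pair 1 (x axis) and pair 2 (y axis) for all 12115 genes (grey) and the 7 receptor genes (red); dashed lines mark a 2-fold ratio. Ccr7 and S1pr1 lie beyond 2-fold in both pairs, S1pr4, Cd69 and Cd44 lie on the same side of 0 in both within 2-fold, Selplg sits on 0 in pair 1, and Gpr183 has opposite signs.

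Genes that act with these receptors were taken as 5 lists, of which 68 genes were tested. Of these 0 were called higher and 2 lower, against 1.21% and 1.35% of all genes (limma, adjusted p under 0.05). The block on the pair gave 9 higher and 6 lower, against 5.23% and 6.36% of all genes. The median log2 difference of the 68 was 0.06.

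Partners of entry are the integrin arm and the signalling proteins that act downstream of CCR7. Of 19 tested 1 fell: Icam1, an adhesion ligand of the integrin LFA-1, read 1735 and 1528 on the labelled-deficient arrays and 3748 and 3249 on the wild-type arrays (log2 -1.09 ± 0.21, limma adjusted p = 0.0423). Icam2, another ligand of LFA-1, went the other way without passing, at 2737 and 2614 against 1435 and 1461 (limma adjusted p = 0.0748, and 0.000871 with the pair as a block). Arrb1, which encodes an arrestin that desensitizes receptors, stood at log2 0.88 and Rasgrp2, an activator of the small GTPase Rap1, at 0.67, neither past the threshold (limma adjusted p = 0.281 and 0.438). With the pair as a block 2 of the list were called higher, Icam2 and Arrb1 (0.0135 for Arrb1), and 1 lower, Icam1. The median log2 difference of the list was -0.05.

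Among 16 partners of exit tested, sphingosine 1-phosphate enzymes, transporters, other receptors and regulators of G protein signalling, 0 were called in either direction (limma; 3 higher and 1 lower with the pair as a block). The members with the largest differences were Rgs2 (log2 1.06), Rgs10 (0.82) and Gna12, a G protein subunit gene (0.73), with limma adjusted p values of 0.325, 0.286 and 0.326. With the block Rgs2, Rgs10 and Arhgef1 were called higher (limma adjusted p = 0.00326, 0.00189 and 0.0381) and Rgs1 lower (0.0254). Rgs1 read 5775 and 5124 on the labelled-deficient arrays against 7330 and 9115 on the wild-type arrays, without overlap (log2 -0.59, limma adjusted p = 0.213 without the block). Rgs2 and Rgs10 shorten signals from G protein-coupled receptors. In pair 2 the wild-type Rgs2 signal was low, at 793 against 2183 in pair 1, while the labelled-deficient arrays read 2651 and 2898. The S1P receptor S1pr2, which holds cells in place, read 399 and 239 on the labelled-deficient and 315 and 473 on the wild-type arrays, with overlap.

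The list around Gpr183 held the enzymes that make or break its oxysterol ligand and related lymphocyte receptors. All 7 tested had a log2 difference above 0, as had 49.67% of all genes, and their median was 0.66. Of the 7, 0 were called (limma), and with the pair as a block Gpr34 and Gpr18 were called higher (limma adjusted p = 0.00435 and 0.00105). Gpr34, a lysophosphatidylserine receptor gene, stood at 1.38 with signals of 325 and 317 on the labelled-deficient arrays and 124 and 102 on the wild-type arrays (limma adjusted p = 0.0619). Gpr18 read 4284 and 4088 against 2235 and 2442 (limma adjusted p = 0.0744), and Cyp27a1, a sterol hydroxylase gene, 145 and 181 against 173 and 37.4 (0.673). Cyp27a1 thus overlapped, with only the wild-type array of pair 2 low.

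PSGL-1 binds selectins only after it is decorated with sugars and sulphate, and 16 genes of that work and of tethering were tested. None was called (0 higher, 0 lower by limma; 2 higher and 3 lower with the pair as a block), with a median log2 difference of -0.29. Gcnt1, the branching enzyme of the core 2 sugar chains on PSGL-1, read 261 and 271 on the labelled-deficient arrays and 446 and 877 on the wild-type arrays (log2 -1.19, limma adjusted p = 0.160). St3gal6, a sialyltransferase gene, went the other way at 189 and 276 against 58.0 and 88.6 (log2 1.46, limma adjusted p = 0.0913). The selectin gene Selp was dim, at 137 and 157 against 41.4 and 4.46 (log2 2.21, limma adjusted p = 0.0751). Gcnt1, St3gal6 and Selp passed once the block was fitted (limma adjusted p = 0.00413, 0.00698 and 0.00340). So did Fut7 and Tpst2, both lower (limma adjusted p = 0.0298 and 0.0188). Fut7 read 90.2 and 175 on the labelled-deficient arrays against 187 and 416 on the wild-type arrays. Tpst2 read 877 and 791 against 1496 and 1179.

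Of 10 partners of CD44 tested 1 fell. Hmmr, which encodes another hyaluronan-binding protein that is also a mitotic spindle component, read 587 and 676 on the labelled-deficient arrays and 1420 and 1620 on the wild-type arrays (log2 -1.24 ± 0.23, limma adjusted p = 0.0408). Srgn, the proteoglycan serglycin, stood at -0.24 and Msn, a linker of CD44 to the cytoskeleton, at 0.13, with limma adjusted p values of 0.658 and 0.945. Icam1 and Hmmr both missed the threshold without either labelled-deficient array (limma adjusted p = 0.122 and 0.206 without that of pair 1, and 0.186 and 0.103 without that of pair 2). So did Icam1 without the wild-type array of pair 1 (0.0742), Hmmr without that of pair 2 (0.0855), and both without the filter (limma adjusted p = 0.0851 and 0.0811) or the trend (0.116 and 0.0896).

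**Figure D4:**
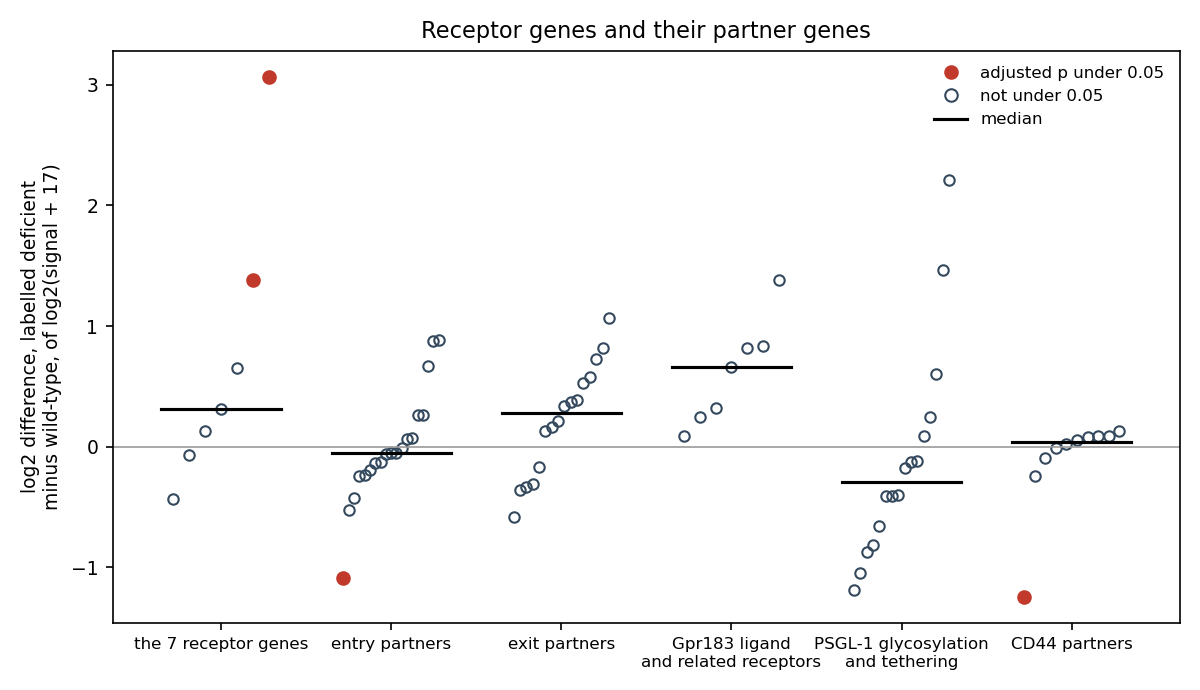
Log2 difference of (signal + 17), labelled Foxo1/3-deficient minus wild-type, for each of the 7 receptor genes and the 68 tested partner genes by list; filled red points have a limma adjusted p under 0.05, and black bars are medians. Ccr7 and S1pr1 are filled above 0, Icam1 and Hmmr below, and the list around Gpr183 lies wholly above 0.

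The genes whose profile over the 4 arrays lay nearest to each member were found by Euclidean distance between log2 profiles centred on each gene's mean, as a description over 4 points. Nearest to Ccr7 were Id3, an inhibitor of E protein transcription factors (distance 0.34), A530021J07Rik (0.48) and Aff3 (0.55). Id3 read 3294 and 2302 on the labelled-deficient arrays and 532 and 253 on the wild-type arrays. Nearest to S1pr1 were Lgmn, the protease legumain (0.06), Tmem102 (0.12) and Arhgap29 (0.13). Lgmn repeated its shape, with 920 and 642 against 270 and 287. S1pr4 had Eya3, Mfng and Ipo4 beside it (0.07 to 0.08), and Cd69 had Slc36a4, Pan3 and Brf2 (0.04 to 0.05). Selplg had Ttl, Pi4ka and Npepps (0.02 to 0.03), Gpr183 had Ppbp, Micos13 and Snap29 (0.10 to 0.11), and Cd44 had Lamtor4, the histone methyltransferase gene Ezh2 and 2810002D19Rik (0.02 to 0.04). Ccr7 was farther from its neighbours than the other members were from theirs.

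Promoter windows from RefSeq (build GRCm38.p6, the 250 bases before the annotated gene start, shown in the gene's direction) were matched for S1pr4, Gpr183 and Cd44. Those of S1pr4, higher in both pairs, and of Cd44, lower in both pairs, are shown because FoxO and KLF factors are known regulators of T cell trafficking genes. Capitals mark a match to the KLF core CACCC on either strand.
S1pr4, chr10:81500138-81500387, minus strand: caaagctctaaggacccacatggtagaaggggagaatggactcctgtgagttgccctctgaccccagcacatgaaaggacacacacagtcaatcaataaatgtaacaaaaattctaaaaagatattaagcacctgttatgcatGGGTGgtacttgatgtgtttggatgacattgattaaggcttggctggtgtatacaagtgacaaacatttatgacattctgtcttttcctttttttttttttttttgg
Cd44, chr2:102901666-102901915, minus strand: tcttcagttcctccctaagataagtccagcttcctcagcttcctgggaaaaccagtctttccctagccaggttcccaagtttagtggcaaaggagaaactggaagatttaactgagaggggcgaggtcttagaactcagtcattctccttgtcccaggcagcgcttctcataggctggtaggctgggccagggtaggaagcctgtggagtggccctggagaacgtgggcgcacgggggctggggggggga
The FoxO motif GTAAACA and its shorter form GTAAAC, which lies within it, had 0 matches on either strand of the 3 windows, and 3.17% and 6.92% of 32851 windows of the same length held them. CACCC had 1 match in the S1pr4 window, 107 bases before the start, and 0 in those of Gpr183 and Cd44, while 52% of all windows held it. These letters describe the windows and say nothing of binding.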

How the data were processed

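The deposited values were MAS5 intensities per probe set on a linear scale, per the submitters' processing notes, which give no version here; RNA came from a Qiagen kit and carried biotin, per the labels' protocols. The 2% trimmed mean was 500.003 on all 4 arrays, so no scaling was added. The number of arrays limits the precision. Members, lists and tests were chosen with earlier results of these data known. The pseudocount of 17 is the rounded 25th percentile of all signals. Probe sets with a mean log2 value below the 40th percentile (near a signal of 40.5) were dropped, which kept 27022 probe sets, 10 of the 11 members' among them. For each gene the brightest probe set was read (12115 genes). Leaving out 64 controls, 34945 probe sets had 1 symbol in the annotation, 932 had several and 9160 had none.

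The comparison used limma 3.58.1 under R 4.3.3 (lmFit, eBayes with an intensity trend, two-sided, Benjamini-Hochberg over all genes or all probe sets), without the pair. On simulated data the fit was required to return the mean size of planted changes, and no rate of false calls was required. The fit without the pair had 2 residual degrees of freedom, and fits with the block or without an array had fewer. Every p thus leans on the shared variance model, since an exact test of 2 against 2 cannot go under 0.333. The pairing comes from the titles, and deviations from the group means correlated at a Pearson r of 0.367 across genes between arrays of a pair, so calls that the block changes are given for the members and the gene lists. Alternatives were the block, 2 pseudocounts, 2 filters, no trend, quantile normalization, 2 rules for the probe set of a gene, and leaving out each array. The genes named were the 7 members, partner genes past the threshold and up to 3 more of each list by size. Also named were Foxo1, Foxo3 and Klf2, marker genes and the 3 nearest profiles of each member. S1pr2, Rgs1, Arhgef1, Fut7 and Tpst2 were named after their values were seen. Foxo3 read 1425 and 1308 on the labelled-deficient and 1876 and 2635 on the wild-type arrays (limma adjusted p = 0.241, and 0.0127 with the block).

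Of the other marker lists, macrophage and monocyte markers (11 tested), neutrophil markers (3) and erythroid and platelet markers (4) had 0 calls in either direction, with median log2 differences of 0.50, -0.98 and -0.21. Without overlap 7 of the 11 macrophage and monocyte markers were higher and 1 lower, against 20.0% and 21.1% of all genes. Of the 4 sex-linked genes tested 0 were called. With the pair as a block 4 macrophage and monocyte markers were called higher (Adgre1, Csf1r, Mrc1 and C1qb) and 1 lower (Ccr2), and 1 neutrophil marker (Mmp9, limma adjusted p = 0.000341) and 1 sex-linked gene (Xist, 0.0104) were called lower.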

Additional observations from a re-analysis of the deposited data

How the results depend on the processing

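Ccr7 lay between log2 2.40 and 3.74 and S1pr1 between 1.13 and 1.63 over 13 alternatives, and they were called in 11 and 10 of them. With the pair as a replicate block 634 of all genes were called higher and 770 lower, the partner genes gave 9 higher and 6 lower, and the member probe sets 2 higher and 1 lower; S1pr4 was the only member gene that the block added. Without the filter the member genes called higher were 0, the member probe sets 0, the partner genes called lower 0, and all genes 45 higher and 44 lower. Without the trend these were 0, 0, 0, 57 and 54. Member probe sets called higher were 2 under a filter at the 60th percentile, and 2 with the median signal as pseudocount. Partner genes called higher were 1 without a pseudocount (Selp), on the first-listed probe set (Selp) and on the mean of probe sets (Gpr34), and 1 was called lower on that mean. Leaving out 1 array at a time gave 1 to 2 member genes and 1 member probe set called higher, 0 members lower, 67 to 278 genes higher, 82 to 266 lower, and 0 to 5 partner genes higher and 0 to 2 lower. The low counts came without a labelled-deficient array, and the member S1pr1 was lost only without that of pair 1. The highest counts of all genes and of partner genes called higher came without the wild-type array of pair 1. There Rgs2, Rgs10, Cyp27a1, Gpr34 and Selp passed, and St3gal6 passed without the wild-type array of pair 2. Leaving out 1 array at a time moved Selplg between -0.020 and 0.28 and Gpr183 between -0.66 and 0.51, with the turned signs without the wild-type array of pair 2, and quantile normalization turned the pair 1 ratio of Selplg to log2 0.12. The causes of these shifts were not tested. Where an array was left out, the lone array of its group was assumed to vary like the other group.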
